A study of Homo sapiens with 6 samples.

Results

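Transcripts of 9 proteasome genes were examined in BT-549, a cell line established from a human triple-negative breast cancer, after silencing of IRF1, which activates transcription in response to interferon (IFN). The genes were taken by symbol from 37887 rows of a count table and all 9 were found. They comprised 5 genes of the immunoproteasome (PSMB8, PSMB9, PSMB10, PSME1 and PSME2) and 4 constitutive counterparts (PSMB5, PSMB6, PSMB7 and PSME3). RNA-seq was performed on 3 control samples, given 0.1% DMSO as vehicle, and 3 IRF1shRNA samples, given 500 ng/ml doxycycline to induce a short hairpin RNA (shRNA) against IRF1. The control titles name a control shRNA, whereas the series text names 1 stable line that carries the inducible IRF1 hairpin in both arms. Under either reading, doxycycline and the hairpin were given together, so their effects cannot be told apart, and neither can those of other targets of that hairpin. If the titles are right, the groups are also separately made lines, and differences between lines cannot be told apart from silencing. The labels speak of cells cultured in triplicate, and where these were not separate cultures the p-values measure a spread that may be technical.

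The proteasome is a barrel-shaped protease in which catalytic β subunits cut proteins that are marked with ubiquitin. IFN-exposed cells and leukocytes make alternative catalytic subunits, β5i (PSMB8), β1i (PSMB9) and β2i (PSMB10), which take the places of β5 (PSMB5), β1 (PSMB6) and β2 (PSMB7) during assembly of new particles. The resulting immunoproteasome favors peptides that fit MHC class I molecules. The caps PA28α (PSME1) and PA28β (PSME2), which form a joint ring on the barrel, are also IFN-inducible, whereas the related nuclear cap PA28γ (PSME3) is not known as an IFN-inducible gene.

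The DNA at the start sites of these genes was examined for the letters that IRF proteins recognize, since members that move together may share them. Promoter windows from RefSeq (build GRCh38.p14), each spanning 250 bases before an annotated start and 50 bases from it on, were found for 7 of the 9 members, and PSMB6 and PSMB7 had no entry. The core of the IFN-stimulated response element, searched as GAAANNGAAA on both strands, was present in 4 of the 5 immunoproteasome genes, or 4 of their 6 windows. The 3 windows of PSMB5 and PSME3 held 0 matches. The core was present in 3 of 42 other proteasome genes with a window (PSMA4, PSMB4 and PSMG4), or 3 of their 55 windows. Of all 35116 windows, 3.57% held it. The stretches of the 4 immunoproteasome genes are shown with the match in capitals, 5′ to 3′ in the sense of each gene. They are printed because all 4 of these matches hold the same 10 letters on one strand or the other.
PSMB8, chr6:32844012-32844081, minus strand: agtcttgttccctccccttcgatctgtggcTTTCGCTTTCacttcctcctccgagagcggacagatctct
PSMB10, chr16:67936832-67936901, minus strand: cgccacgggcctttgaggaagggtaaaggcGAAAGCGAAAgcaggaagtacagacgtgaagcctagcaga
PSME1, chr14:24136169-24136238, plus strand: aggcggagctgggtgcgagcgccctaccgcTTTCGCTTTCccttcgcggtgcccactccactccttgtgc
PSME2, chr14:24146599-24146668, minus strand: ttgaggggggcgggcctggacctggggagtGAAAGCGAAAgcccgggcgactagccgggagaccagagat

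The matches lay close to the starts. In PSMB10 the match ran from 21 to 12 bases before the start, and in PSME2 from 28 to 19 bases before it. In PSME1 it ran from base 6 to base 15 of the transcript, and in PSMB8 it spanned the start that lies at 32844047 on chromosome 6. The other annotated PSMB8 start, at 32844679, had no match in its window. These exact 10 letters, GAAAGCGAAA, which were chosen after the matches were seen, were present in 35 of the 35116 windows, or 0.0997%.

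PSMB9 differed from these 4 genes in that no match was present in its RefSeq window, at the start 32854192. The GENCODE model of PSMB9 begins further upstream, at 32844136, and no PSMB9 window was taken there. The PSMB8 match, at 32844042 to 32844051, lies shortly before that position, and its part in PSMB9 was not tested. The RefSeq start of PSMB9 lies head to head with that of TAP1, the peptide transporter gene, with 487 bases between the RefSeq models. A window of TAP1 held 2 overlapping matches, and the nearest base of these lies 354 bases before the RefSeq start of PSMB9. The whole PSMB9 window (chr6:32853942-32854241, plus strand) is printed in lower case, followed by the TAP1 stretch (chr6:32853793-32853868, minus strand) with the overlapping matches in capitals.
PSMB9: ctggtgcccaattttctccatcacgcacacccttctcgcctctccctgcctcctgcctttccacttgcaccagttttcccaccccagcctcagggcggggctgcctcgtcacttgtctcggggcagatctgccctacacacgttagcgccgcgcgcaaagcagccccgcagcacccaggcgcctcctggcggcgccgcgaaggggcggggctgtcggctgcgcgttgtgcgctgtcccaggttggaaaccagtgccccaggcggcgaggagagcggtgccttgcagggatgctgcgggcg
TAP1: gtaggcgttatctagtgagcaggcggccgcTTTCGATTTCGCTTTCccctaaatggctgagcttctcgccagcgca

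Other motifs were searched in the same windows. The IFN-γ-activated site (GAS), TTCNNNGAA, is its own reverse complement and was present in 7.66% of all windows, in PSMB8 (65 to 57 bases before the start that also held the IRF match), in PSMB5 and in PSME3. The antioxidant element, TGACNNNGC on both strands, is read by factors that include NFE2L1, a regulator of constitutive proteasome genes. It was present in 13.3% of all windows and, among the members, in PSMB9, PSME1 and PSME2. Of 42 other proteasome genes with a window 16 held it, as did 17 of their 55 windows. The κB motif was absent from all 9 member windows and present in 11.3% of all windows. The TAP1 window that held the IRF matches also held 2 κB matches, and the other TAP1 window held a GAS match. In the member windows no match of one motif overlapped a match of another, and a match is a string of letters and not a measured binding site.

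**Figure D1:**
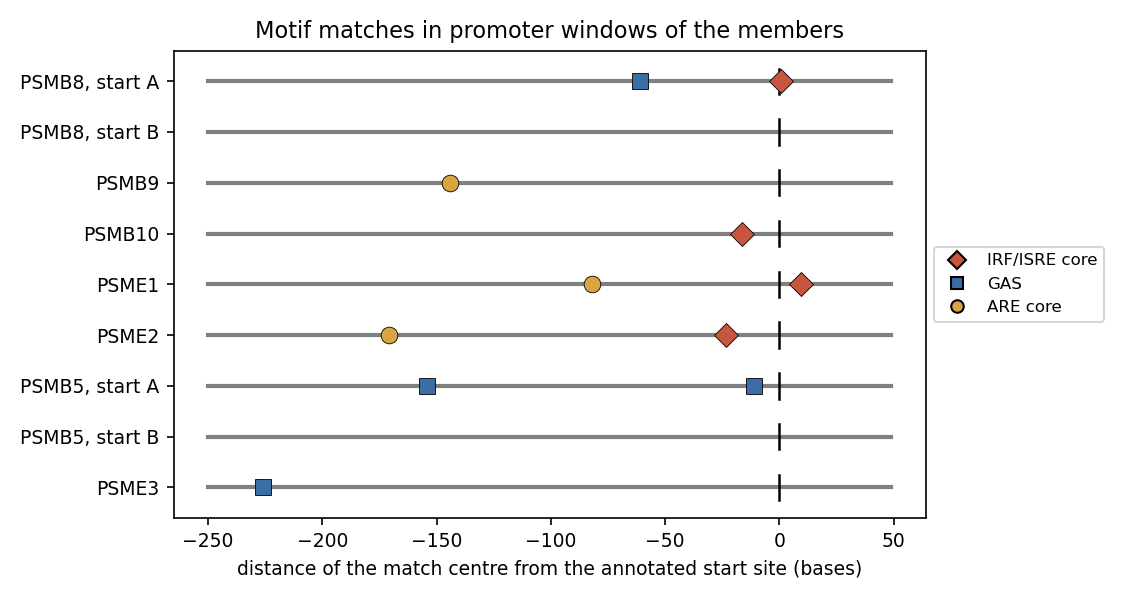
Positions of motif matches (symbols) in RefSeq promoter windows (grey lines) of the members, in bases from the annotated start (black tick). Rows A and B are the 2 annotated starts of a gene, and the IRF matches of PSMB8, PSMB10, PSME1 and PSME2 lie from 28 bases before to 15 bases after a start.

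The libraries and the silencing were examined before the members. The total count per library ranged from 55143808, in IRF1shRNA replicate 2, to 160436234, so that 3 counts, the smallest number taken as detected, corresponded to between 0.0187 and 0.0544 CPM, the count relative to the library total. Levels are given as CPM scaled by the trimmed mean of M values (TMM). IRF1 was at 45.3, 48.1 and 51.5 CPM in the control libraries, against 13.8, 14.9 and 14.6 CPM in the IRF1shRNA libraries, so that silencing left 29.9% of control (log2 fold change −1.74 ± 0.06, SE). The mesenchymal markers VIM and CD44 were abundant, although VIM fell to 68.0% of its control mean of 918 CPM and CD44 to 82.8% of its control mean of 1548 CPM, both with an adjusted p under 0.05. The sum of the 6 line markers was 2439 to 2504 CPM in the controls and 1860 to 1961 CPM after silencing, and the part of this shift in the results was not tested. Of these markers, CDH1, EPCAM, ESR1 and PGR were each below 1 CPM in every library. Leukocytes carry immunoproteasomes, and the summed level of 8 leukocyte markers was 4.05 to 4.94 CPM in control and 4.13 to 5.22 CPM in IRF1shRNA samples, with CD3E at 0 in 5 of the 6 libraries and NKG7 at 0 counts in every control and 4 counts in every IRF1shRNA library. Among the leukocyte markers, CD14 rose and CD74 fell with an adjusted p under 0.05, and their part in the results was not tested. Silencing was followed by broad changes, as 50.5% of the 18851 genes that were tested passed an adjusted p of 0.05, 26.4% being lower and 24.1% higher.

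All 5 immunoproteasome transcripts were more than 2-fold lower in IRF1shRNA than in control samples, whereas none of the 4 constitutive transcripts differed by as much as 2-fold. PSMB9 fell most, to 6.83% of control, followed by PSMB8 (25.8%), PSME1 (34.3%), PSME2 (42.0%) and PSMB10 (43.5%). Of the constitutive genes, PSMB7 rose to 121% and PSMB5 to 110% of control, and PSMB6 and PSME3 did not pass the threshold. By the quasi-likelihood test of edgeR, adjusted over all genes after Benjamini and Hochberg, 5 of 5 immunoproteasome genes were lower beside 26.4% of all genes tested, and 2 of 4 constitutive genes were higher beside 24.1%. With a fold change over 2 as well, 5 of 5 immunoproteasome genes were lower beside 4.43% of all genes, and 0 of 4 constitutive genes were higher beside 3.43%. In bulk RNA, fewer cells that express a gene and less RNA per cell cannot be told apart. The median log2 fold change was −1.55 for the 5 immunoproteasome genes, 0.08 for the 4 constitutive genes and −0.0024 for all genes tested.

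**Figure D2:**
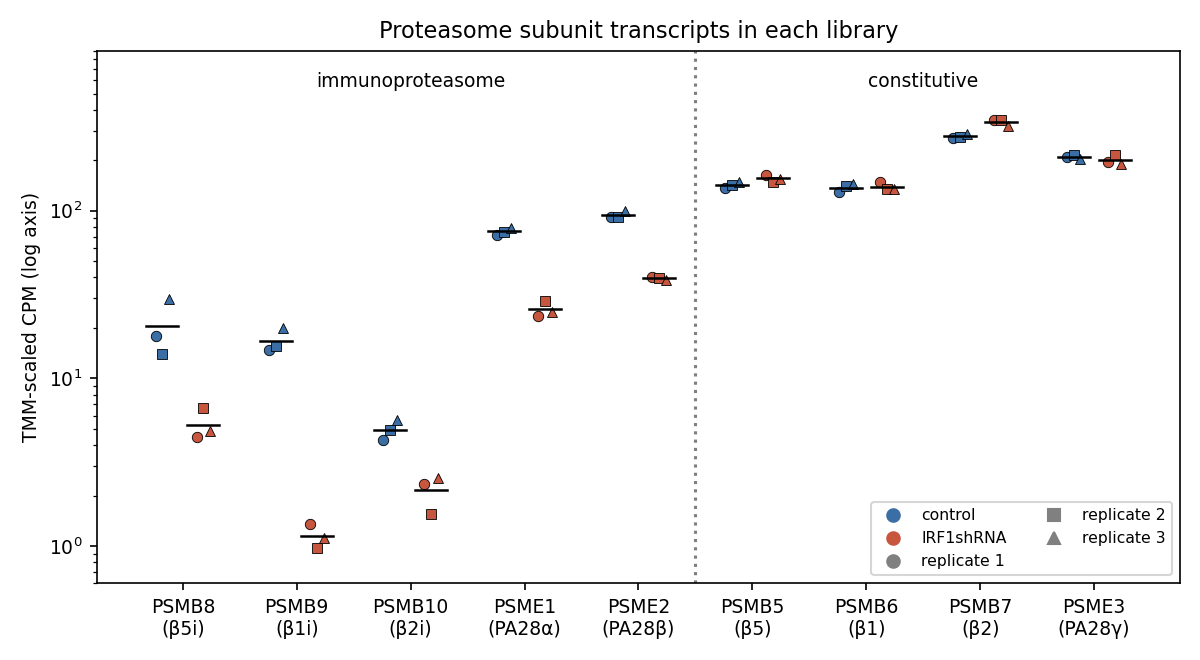
TMM-scaled CPM (log axis) of each member in each library, with control samples in blue, IRF1shRNA samples in red, a symbol per replicate number and a black bar at the group mean. The groups separate for the 5 immunoproteasome genes on the left, and also for PSMB5 and PSMB7, as they do for 56.8% of all genes tested. PSMB9 lies at 14.7 to 20.1 CPM in control and 0.973 to 1.35 CPM in IRF1shRNA samples.

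PSMB9 encodes β1i, the subunit that replaces the caspase-like β1, and lies in the MHC region at chr6:32844136-32859585 (plus strand, GENCODE release 29). Its count was 1811, 1903 and 2990 in the controls, in order of replicate number, against 170, 54 and 183 after silencing. These correspond to 14.7, 15.5 and 20.1 CPM in the control libraries, against 1.35, 0.973 and 1.11 CPM in the IRF1shRNA libraries. Every IRF1shRNA library was below every control library by more than 10-fold, and control replicate 3 was the highest. Its fitted change on the log2 scale was −3.84 ± 0.13 (SE, adjusted p = 2.77e-13, edgeR), which ranked 25 among 18851 genes from the lowest value. The GENCODE model of PSMB9 overlaps those of PSMB8, PSMB8-AS1 and TAP1, and reads that fall on shared exons may have been left out or assigned to either gene, since the strand setting of the counting is not given in the sources used here.

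PSMB8 encodes β5i, which replaces the chymotrypsin-like β5, and lies beside PSMB9 at chr6:32840717-32844703 (minus strand). Its count was 2210, 1714 and 4437 in the controls, in order of replicate number, against 562, 367 and 795 after silencing. On the CPM scale the controls were at 17.9, 13.99 and 29.8 CPM, and the IRF1shRNA samples at 4.46, 6.61 and 4.83 CPM. The groups did not overlap, but the controls were uneven, with a coefficient of variation of 39.9%, the highest of the 9 members, against 17.2% for PSMB9. The log2 fold change of PSMB8 was −1.99 ± 0.20 (SE, adjusted p = 2.73e-07, edgeR), and it was −1.62 without control replicate 3, the highest library. PSMB8-AS1, the antisense gene that overlaps PSMB8, was counted at 0 to 7 in each library.

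Several other genes of the MHC region were uneven between libraries of one group. TUBB, a tubulin gene, had 145 and 148 CPM in the first control libraries but 2.18 CPM in the third. BRD2, a bromodomain protein gene, was at 52.5, 66.6 and 26.1 CPM in the control libraries, against 56.0, 9.17 and 26.4 CPM in the IRF1shRNA libraries. TAPBP, which encodes tapasin of the peptide-loading complex, was uneven in the controls, at 32.8, 17.6 and 17.8 CPM, and was at 13.4, 7.95 and 16.3 CPM after silencing. TUBB and BRD2 overlapped between the groups, whereas TAPBP did not and had a log2 fold change of −0.83 (adjusted p = 0.00369, edgeR). These genes were chosen after their values were seen. The part of such unevenness in the values of PSMB8, PSMB9, TAP1 and TAP2 was not tested. TAP1, which lies between PSMB8 and PSMB9, was at 56.4, 67.8 and 60.6 CPM in the control libraries, against 12.6, 14.3 and 15.4 CPM in the IRF1shRNA libraries, with a log2 fold change of −2.13 ± 0.08 (SE). TAP2, on the other side of PSMB8, fell by 1.61 ± 0.19 on the log2 scale at 1.66 CPM in control. All 4 genes of this cluster were therefore lower in every IRF1shRNA library than in any control library, and the groups did not overlap in either direction for 56.8% of all genes tested.

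PSMB10 encodes β2i, which replaces the trypsin-like β2, and lies outside the MHC region at chr16:67934502-67937087 (minus strand). It was the least abundant member in the controls, at 4.27, 4.90 and 5.64 CPM, against 2.36, 1.55 and 2.53 CPM after silencing. No IRF1shRNA library reached the lowest control, and the lowest value came from IRF1shRNA replicate 2, with 86 counts. Its fitted change on the log2 scale was −1.16 ± 0.14 (SE, adjusted p = 2.72e-06, edgeR). Of its neighbors, LCAT had a log2 fold change of −0.18 ± 0.09 (adjusted p = 0.111 in edgeR's test) and CTRL had no count in any library.

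PSME1 encodes PA28α and lies at chr14:24136158-24138967 (plus strand). It was at 72.1, 75.0 and 78.5 CPM in the control libraries, against 23.5, 28.8 and 25.03 CPM in the IRF1shRNA libraries. The lowest control was thus more than 2-fold above the highest IRF1shRNA library. PSME1 had a log2 fold change of −1.55 ± 0.06 (SE, adjusted p = 2.07e-12, edgeR).

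PSME2 encodes PA28β, the ring partner of PA28α, and lies nearby at chr14:24143362-24147570 (minus strand). It was at 91.5, 92.1 and 98.9 CPM in the control libraries, against 40.3, 39.7 and 38.6 CPM in the IRF1shRNA libraries, the tightest of the 5 immunoproteasome genes after silencing. Its fitted change on the log2 scale was −1.25 ± 0.05 (SE, adjusted p = 5.19e-13, edgeR). EMC9 lies between PSME1 and PSME2 and encodes a subunit of a membrane protein insertase. Its mean was 11.4 ± 0.584 CPM (SD, n = 3) in control and 12.4 ± 0.615 CPM after silencing, with a log2 fold change of 0.12 ± 0.07 (adjusted p = 0.176 in edgeR's test). RNF31, 264 bases beyond PSME2, and FITM1, beside PSME1, did not pass the threshold either, at −0.25 ± 0.18 and 0.93 ± 0.53 (adjusted p = 0.278 and 0.166 in edgeR's test), and FITM1 was below 0.4 CPM in every library. PSME2P2, a processed copy of PSME2 to which reads may be shared, was at 1.03 CPM in the control libraries, against 0.391 CPM in the IRF1shRNA libraries.

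The ring partners did not move by the same amount. For 100 counts of PSME2 there were 78.8, 81.4 and 79.3 counts of PSME1 in the controls, against 58.3, 72.5 and 64.8 after silencing. Within the MHC cluster, 100 counts of PSMB9 were matched by 122, 90.1 and 148 counts of PSMB8 in control and by 331, 680 and 434 in IRF1shRNA samples. These comparisons within the immunoproteasome genes were chosen after their values were seen and are given without a test. In both the groups did not overlap, and for single genes this held in 56.8% of those tested.

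The constitutive genes were examined for a change in the opposite direction. PSMB7, which encodes β2 (chr9:124353466-124415444, minus strand), was at 273, 277 and 289 CPM in the control libraries, against 348, 348 and 321 CPM in the IRF1shRNA libraries. Its groups did not overlap, as for 56.8% of all genes tested, and its change on the log2 scale was 0.28 ± 0.05 (SE, adjusted p = 5.25e-05, edgeR). PSMB5, which encodes β5 (chr14:23016543-23035230, minus strand), was at 136, 142 and 148 CPM in the control libraries, against 164, 149 and 155 CPM in the IRF1shRNA libraries. The difference between its closest libraries was under 1 CPM, its change on the log2 scale was 0.14 ± 0.05, and its adjusted p was 0.0230 in the same edgeR test. The PSMB5 call was lost without control replicate 1 (0.10), control replicate 2 (0.14), IRF1shRNA replicate 1 (0.096) or IRF1shRNA replicate 3 (0.14), with adjusted p-values of 0.112, 0.0836, 0.156 and 0.0514 in edgeR's test.

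The other constitutive genes did not pass the threshold. PSMB6, which encodes β1 (chr17:4796144-4798503, plus strand), was at 129, 140 and 144 CPM in the control libraries, against 148, 135 and 135 CPM in the IRF1shRNA libraries, with overlapping groups. Its change on the log2 scale was 0.02, with a 95% interval from −0.09 to 0.13 and an adjusted p of 0.778 in edgeR's test. PSME3, which encodes PA28γ (chr17:42824385-42843758, plus strand), was at 208, 215 and 204 CPM in the control libraries, against 194, 214 and 191 CPM in the IRF1shRNA libraries. Its change on the log2 scale was −0.07, with a 95% interval from −0.17 to 0.03 and an adjusted p of 0.275 in edgeR's test. Leaving out IRF1shRNA replicate 2 gave −0.11 for PSME3 with an adjusted p of 0.0415 in edgeR's test. In these genes the intervals exclude a fall as large as that of any immunoproteasome gene.

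Each immunoproteasome transcript was then set against the constitutive subunit whose place it takes, or against PA28γ for the caps. A ratio of counts within a library does not depend on how libraries are scaled. For 100 counts of PSMB6 there were 11.4, 11.1 and 13.96 counts of PSMB9 in control and 0.912, 0.719 and 0.826 in IRF1shRNA samples. The log2 ratio fell by 3.89 ± 0.14 (SE), or 14.8-fold, the largest shift of the 5 ratios. For 100 counts of PSMB5 there were 13.2, 9.87 and 20.1 counts of PSMB8 in control and 2.72, 4.45 and 3.12 in IRF1shRNA samples. That log2 ratio fell by 2.04 ± 0.37, or 4.11-fold, with the widest spread among controls. For 100 counts of PSMB7 there were 1.56, 1.77 and 1.95 counts of PSMB10 in control and 0.677, 0.445 and 0.789 in IRF1shRNA samples. That log2 ratio changed by −1.502 ± 0.26, or 2.83-fold. This exceeds the fall of PSMB10 alone, since PSMB7 rose.

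The caps gave the same order of groups. For 100 counts of PSME3 there were 34.7, 34.9 and 38.5 counts of PSME1 in control and 12.1, 13.5 and 13.1 in IRF1shRNA samples. For PSME2 these values were 44.0, 42.9 and 48.6 in control and 20.7, 18.6 and 20.2 in IRF1shRNA samples. The log2 ratios to PSME3 changed by −1.48 ± 0.07 for PSME1 and by −1.19 ± 0.07 for PSME2. In each of the 5 ratios every IRF1shRNA library was below every control library, and for single genes the groups did not overlap in 56.8% of those tested. The ratios reuse the members described above, with PSME3 as the partner of both caps, and are not independent of them. The two-sided exact permutation p was 0.1 for each of the 5 ratios, before and after Benjamini-Hochberg adjustment over them, which is the smallest value that 3 against 3 samples allow. When the sum of the α-ring genes PSMA1 to PSMA7 replaced the partner, the log2 ratios changed by −3.998 for PSMB9, −2.03 for PSMB8, −1.35 for PSMB10, −1.68 for PSME1 and −1.38 for PSME2.

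**Figure D3:**
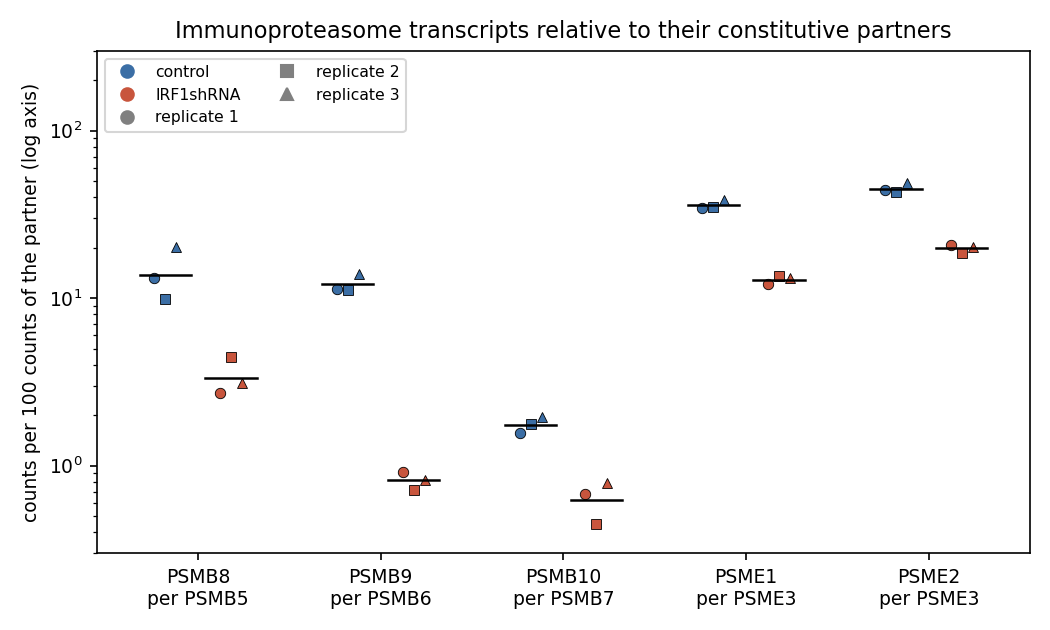
Counts of each immunoproteasome transcript per 100 counts of its constitutive partner (log axis) in each library, with control samples in blue, IRF1shRNA samples in red and a black bar at the geometric mean of the group. PSMB9 shifts most, from 11.1 to 13.96 per 100 counts of PSMB6 in control to 0.719 to 0.912 in IRF1shRNA samples.

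Levels were compared between genes as CPM per kilobase of exon, using the union of exons in GENCODE release 29, since longer transcripts give more counts. The means over control samples were 285 for PSMB7, 158 for PSMB6, 96.9 for PSMB5, 63.3 for PSME2, 61.6 for PSME1, 46.4 for PSME3, 18.2 for PSMB9, 13.3 for PSMB8 and 4.05 for PSMB10, in CPM per kilobase. Among neighbors in this order, PSME2 and PSME1 overlapped between libraries, as did PSMB9 and PSMB8, and the others did not. The constitutive catalytic genes were thus above their inducible alternatives in control cells. On this scale the inducible member made up 11.9% ± 3.78 of the PSMB8 and PSMB5 total in control, 10.3% ± 1.18 for PSMB9 and PSMB6, and 1.40% ± 0.153 for PSMB10 and PSMB7 (SD, n = 3 each).

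After silencing, the order on this per-kilobase scale changed in the caps and at the low end. The means over IRF1shRNA samples, in CPM per kilobase, were 346 for PSMB7, 160 for PSMB6, 106 for PSMB5, 44.4 for PSME3, 26.6 for PSME2, 21.1 for PSME1, 3.42 for PSMB8, 1.76 for PSMB10 and 1.243 for PSMB9. Per kilobase, PSME3 had been below PSME1 and PSME2 in every control library and was above both in every IRF1shRNA library. This order depends on the union lengths, 4499 bases for PSME3, 1221 for PSME1 and 1488 for PSME2. In CPM without division by length, PSME3 was above both in every library of either group. Per kilobase, PSMB9 went from the highest mean of the 3 inducible catalytic genes to the lowest, although its libraries overlapped those of PSMB10 after silencing. In CPM without division by length, the control mean of PSMB8 (20.6) was above that of PSMB9 (16.8). The inducible share of each catalytic pair was 3.13% ± 0.800 for PSMB8, 0.769% ± 0.0901 for PSMB9 and 0.510% ± 0.140 for PSMB10 in IRF1shRNA samples (SD, n = 3 each). RNA levels do not give the composition of assembled particles, which was not measured in these samples.

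The rest of the proteasome was examined for context, from a list of 46 genes of which 44 were tested. Of these, 6 were lower and 23 higher with an adjusted p under 0.05 by edgeR's test, beside 26.4% and 24.1% of all genes tested, and none of the 44 passed a fold change of 2 in either direction. Their log2 fold changes ran from −0.39 to 0.33, with a median of 0.13, so each was closer to 0 than that of any immunoproteasome gene. By role, 0 of 7 α-ring genes were lower and 3 higher, and 1 of 4 β genes without catalytic activity was lower and 1 higher. Of 6 ATPases of the 19S cap, 1 was lower and 4 higher, and of 13 other 19S genes 0 were lower and 10 higher. Of 9 assembly genes, 3 were lower and 2 higher, and of 5 other regulators 1 was lower and 3 higher. Those higher with the smallest adjusted p were PSME4, which encodes the cap PA200 (0.33 ± 0.04, log2 fold change ± SE), PSMC1, a 19S ATPase (0.32 ± 0.04), and PSMD4, a ubiquitin receptor (0.30 ± 0.04). Those lower with the smallest adjusted p were UCHL5, a deubiquitinase of the 19S cap (−0.39 ± 0.05), PSMG3, an assembly chaperone (−0.28 ± 0.05), and PSMB2, a β subunit without catalytic activity (−0.21 ± 0.05). PSMA8 and PSMB11, which belong to germ cell and thymic proteasomes, had 0 to 2 counts per library and were not tested.

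**Figure D4:**
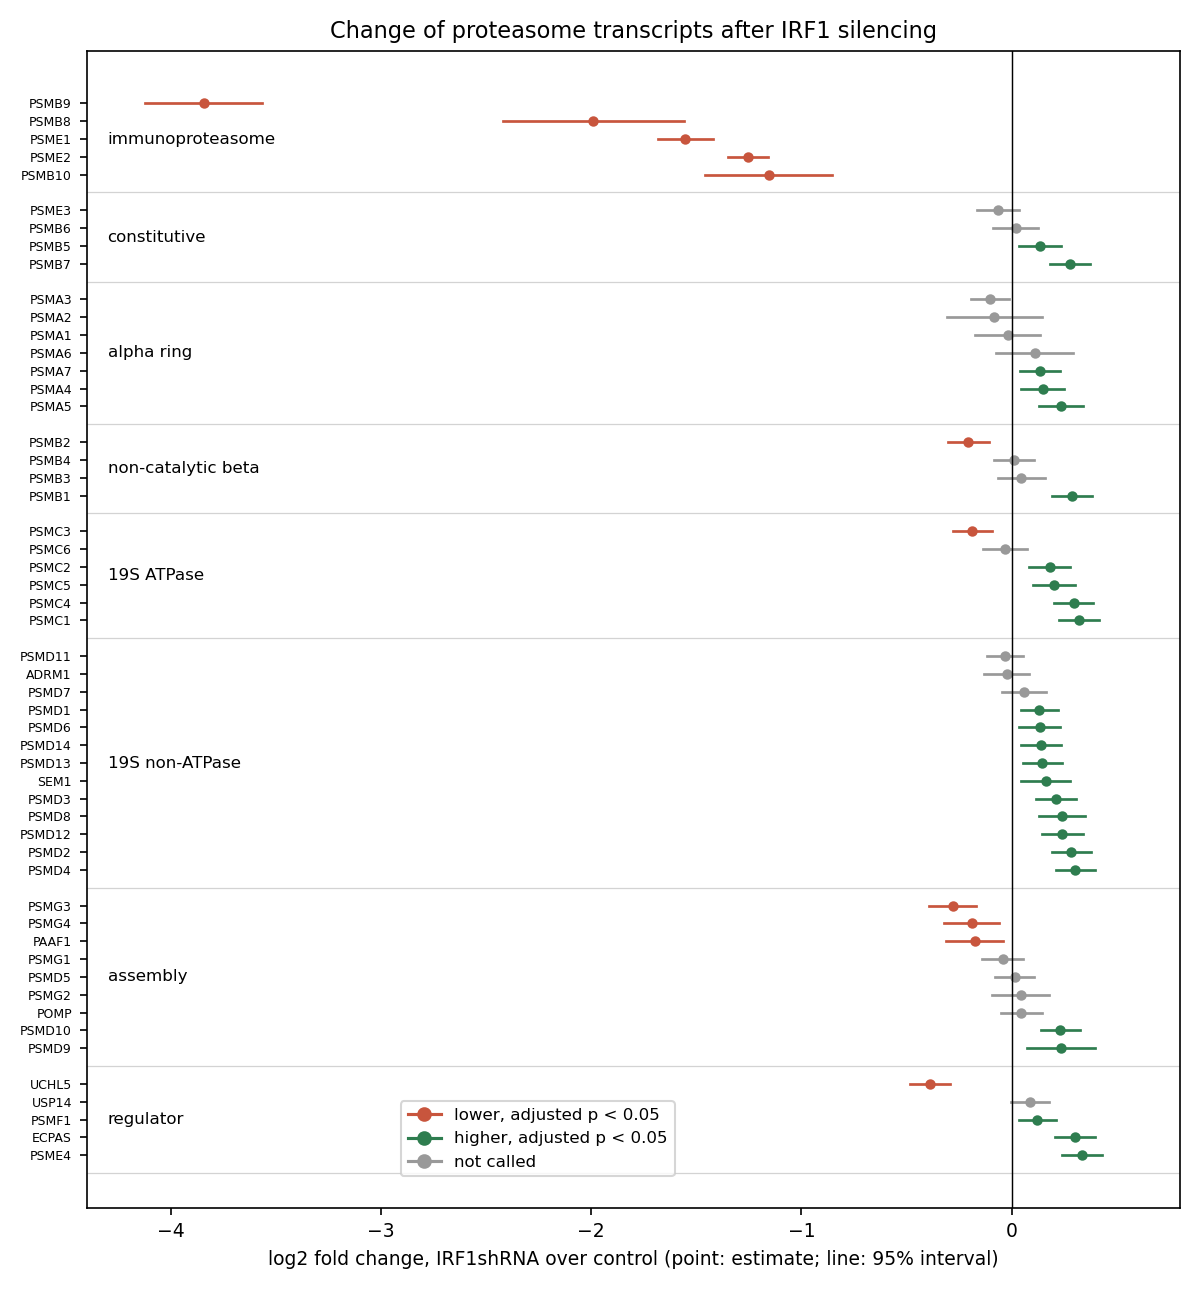
Log2 fold change of IRF1shRNA over control (points) with its 95% interval (lines) for the 9 members and the 44 other proteasome genes tested, grouped by role and colored by call. The 5 immunoproteasome genes lie between −3.84 and −1.16, and the other genes between −0.39 and 0.33.

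Of 6 antigen processing genes described, 6 were lower, TAP1 and TAP2 among them, beside 26.4% of all genes tested, and 1 further listed gene is not counted here. B2M, the MHC class I light chain, had a log2 fold change of −1.32 ± 0.05, and NLRC5, the MHC class I transactivator, of −1.21 ± 0.07. The peptidases ERAP1 and ERAP2, which trim proteasome products, were at −0.85 ± 0.04 and −3.18 ± 0.14 (SE), and the largest adjusted p among these 4 genes was 1.74e-10 in edgeR's test, for NLRC5. HLA-C, an MHC class I heavy chain gene outside this list, was uneven, at 1.62, 7.13 and 2.92 CPM in the control libraries. After silencing it was at 8.40, 0.324 and 6.20 CPM, with overlapping groups and a log2 fold change of 0.45 (adjusted p = 0.523, edgeR). HLA-C was chosen after its values were seen. The genes most like the mean log2 CPM of PSMB8, PSMB9 and PSMB10 over the 6 libraries were PLEKHA6, IP6K2, ID3, SPSB1 and GALNT12, with Pearson's r from 0.99852 to 0.99915 on a scale of log2(CPM + 0.5). Across 6 libraries in 2 groups such values are common, and 2293 of 13057 genes compared had r over 0.95.

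All tested genes with the IRF letters in a window were also described. The letters GAAANNGAAA were held by 498 genes, the 4 members included, and of these 39.0% were lower and 21.9% higher, beside 29.6% and 27.7% of the 12425 tested genes with a window. Their median log2 fold change was −0.10. Of the other proteasome genes that held these letters, PSMA4 was higher (0.15), PSMG4 was lower (−0.19) and PSMB4 was not called (0.01, log2 fold changes). The exact letters shared by PSMB8, PSMB10, PSME1 and PSME2 were held by 22 further tested genes, of which 12 were lower and 4 higher, with a median log2 fold change of −0.30. The same letters were therefore also present at genes that were not lower.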

How the data were processed

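The deposited values are unnormalized counts, 1 column for each of 6 BT-549 samples over 37887 gene symbols. The submitters' processing notes name CASAVA 1.8.2, STAR 2.7.9a, featureCounts, DESeq2 1.24.0 and the build GRCh38.p7. Libraries were made with a stranded mRNA kit per the labels. The annotation, the strand setting of the counting and the handling of reads with several hits are not given in the sources used here. Small counts were mostly even (72.1% to 75.2% of values from 2 to 11). A fragment may thus have been counted as 2, so halved counts were tried. The counts given here, and the floor of 3 counts, are unhalved.

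The counts were tested with edgeR 4.0.16 in R 4.3.3 (quasi-likelihood test, group as single factor, TMM, filterByExpr with a minimum count of 10, Benjamini-Hochberg adjustment over 18851 genes, threshold 0.05), and the fit was tested on simulated data. The SE is the absolute log2 fold change divided by the square root of F. Log2 count ratios were compared with an exact two-sided permutation test. Alternatives were DESeq2 1.42.0, other scalings and filters, halved counts, each replicate left out, a replicate block and other thresholds. Members and lists were chosen with earlier results of these data known. Genes named besides the members were those with the 3 smallest adjusted p-values in each direction among other proteasome genes, neighbors of the immunoproteasome genes in RefSeq, the 5 most correlated genes (mean CPM not under 1), and antigen processing genes, of which 1 is not reported here. Floors cover counting error only. Positions are from GENCODE release 29 on GRCh38, whose chromosome coordinates are shared with GRCh38.p7 and GRCh38.p14. The replicates differed by more than sampling noise.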

Additional observations from a re-analysis of the deposited data

How the results depend on the processing

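All 5 immunoproteasome genes stayed lower with an adjusted p under 0.05 in each of the 14 alternative fits, with the smallest fall at −1.01 (PSMB10 without IRF1shRNA replicate 2). PSMB9 ranged from −3.98 to −3.69, PSMB8 from −2.20 to −1.62, PSME1 from −1.63 to −1.49 and PSME2 from −1.28 to −1.20. Among the fits that left out one replicate, PSMB5 ranged from 0.096 to 0.17, PSMB6 from −0.027 to 0.056, where it reversed without control replicate 1 or IRF1shRNA replicate 1, and PSME3 from −0.11 to −0.035. Constitutive genes called higher then ranged from 1 to 2 and lower from 0 to 1. Under a threshold of 0.01, 1 constitutive gene and 14 other proteasome genes were higher. With a fold change over 2 as well, 0 constitutive genes were higher, and 0 other proteasome genes were lower and 0 higher. All ratios kept their direction. Without TMM, the all-gene median was 0.049 in place of −0.0024, and 4 other proteasome genes were lower and 24 higher.

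The replicate numbers were not taken as a pairing, since deviations of same-numbered samples correlated at −0.0543, 0.0435 and 0.0731. A fit with a replicate block gave log2 values of −1.94 for PSMB8, −3.86 for PSMB9, −1.18 for PSMB10, −1.55 for PSME1, −1.25 for PSME2, 0.14 for PSMB5, 0.02 for PSMB6, 0.28 for PSMB7 and −0.07 for PSME3, and no call among the members changed. Depth limits PSMB9 and PSMB10 most, at 54 and 86 unhalved counts in IRF1shRNA replicate 2.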
